A study of Homo sapiens with 12 samples.

Results

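MHC class I antigen presentation was described here through 9 genes, chosen by name: HLA-B, HLA-C, HLA-E, HLA-F, B2M, TAP1, TAP2, PSMB8 and PSMB9. They are 9 of the 60675 genes in the expression table, and all 9 passed the filter on low values that 15303 genes passed. RNA-seq had been made from MCF10A cells, a non-tumorigenic human breast epithelial line. The comparison asked how cells without the IL-1 receptor components respond to a single high dose of radiotherapy (RT). There were 2 replicate libraries in each of 6 groups: IL1R1-KO cells after 20 Gy (IL1R1-KO RT), IL1RAP-KO cells after 20 Gy (IL1RAP-KO RT), wild-type cells after 20 Gy (WT RT), and untreated IL1R1-KO, IL1RAP-KO and WT cells. All groups shared the cell line and a medium holding EGF, cholera toxin, insulin, hydrocortisone and horse serum. The KO cells were pools selected with puromycin after delivery of Cas9 and a guide RNA, not clones, so a pool can hold unedited cells. The time from irradiation to collection was not given in the sources used here. The series description calls the 2 libraries of a group biological replicates. What was separate about them was not given, so the p-values measure the spread between these libraries.

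Class I molecules carry short peptides from inside the cell to its surface, where cytotoxic T cells and natural killer cells read them. Proteasomes cut proteins into peptides, TAP1 and TAP2 form the transporter that moves peptides into the endoplasmic reticulum, and a heavy chain binds a peptide together with beta-2 microglobulin. Interferons and NF-κB signalling are known to raise many of these genes, and the regulator NLRC5 acts on most of their promoters. In immune responses the inducible catalytic subunits PSMB8, PSMB9 and PSMB10 replace PSMB5, PSMB6 and PSMB7 in newly made proteasomes, which then cut more peptides that fit class I molecules.

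In GRCh38, 8 of the 9 genes lie on chromosome 6 in the major histocompatibility complex. The heavy chain genes are HLA-F (29722775 to 29738528, plus strand), HLA-E (30489509 to 30494194, plus strand), HLA-C (31268749 to 31272130, minus strand) and HLA-B (31353872 to 31367067, minus strand). Nearer the class II genes stand TAP2 (32821833 to 32838739, minus strand), PSMB8 (32840717 to 32844679, minus strand), PSMB9 (32844136 to 32859851, plus strand) and TAP1 (32845209 to 32853816, minus strand). B2M lies alone on chromosome 15 (44711358 to 44718851, plus strand). The annotated body of PSMB9 overlaps PSMB8, TAP1 and the antisense RNA PSMB8-AS1, and HLA-F overlaps HLA-F-AS1. The libraries were stranded, but the strand setting of the counting was not given in the sources used here. The values of these overlapping genes could therefore hold reads of their partners or lack reads of their own. Of the 75-base windows of the reference transcripts, 35.0% of those of TAP2 also occur in a transcript of another gene, nearly all in a readthrough gene listed at no more than 0.79 TPM. How reads that fit more than 1 gene were counted was not given, so that low value does not show that TAP2 was unaffected. HLA-E shared 2.3% of its windows, HLA-C 1.98%, TAP1 0.23%, and HLA-B, HLA-F, B2M, PSMB8 and PSMB9 shared 0. The reference carries other HLA alleles than MCF10A may carry, and how that affected mapping to HLA-B, HLA-C, HLA-E and HLA-F was not tested.

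The promoters are shown because genes of one pathway moved unequally after RT. They are the 250 bases before the start of the gene in RefSeq (GRCh38.p14), read 5′ to 3′ on the strand of the gene. RefSeq had an entry for 8 of the 9 genes, and HLA-E was not among them. Capitals mark matches, on either strand, to an interferon regulatory factor (IRF) core, AANNGAAA, or to the NF-κB consensus. The first 4 belong to genes that rose after RT in at least 2 genotypes, TAP2 and PSMB8 to genes that did not.
HLA-B, chr6:31357180-31357429, minus strand: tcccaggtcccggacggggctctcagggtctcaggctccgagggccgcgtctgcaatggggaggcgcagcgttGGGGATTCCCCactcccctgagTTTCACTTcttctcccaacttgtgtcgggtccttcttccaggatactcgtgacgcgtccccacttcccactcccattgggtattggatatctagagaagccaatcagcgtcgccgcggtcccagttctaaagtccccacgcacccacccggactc
HLA-F, chr6:29723184-29723433, plus strand: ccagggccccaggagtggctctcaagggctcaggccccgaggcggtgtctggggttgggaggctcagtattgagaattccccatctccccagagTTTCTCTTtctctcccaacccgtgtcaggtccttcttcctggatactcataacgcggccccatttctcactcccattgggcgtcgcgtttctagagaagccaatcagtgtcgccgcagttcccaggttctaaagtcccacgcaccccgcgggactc
B2M, chr15:44711267-44711516, plus strand: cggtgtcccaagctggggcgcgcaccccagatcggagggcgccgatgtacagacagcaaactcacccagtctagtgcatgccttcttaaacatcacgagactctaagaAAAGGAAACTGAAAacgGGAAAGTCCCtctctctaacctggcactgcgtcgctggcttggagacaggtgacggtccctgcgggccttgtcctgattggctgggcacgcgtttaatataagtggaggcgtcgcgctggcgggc
TAP1, chr6:32853705-32853954, minus strand: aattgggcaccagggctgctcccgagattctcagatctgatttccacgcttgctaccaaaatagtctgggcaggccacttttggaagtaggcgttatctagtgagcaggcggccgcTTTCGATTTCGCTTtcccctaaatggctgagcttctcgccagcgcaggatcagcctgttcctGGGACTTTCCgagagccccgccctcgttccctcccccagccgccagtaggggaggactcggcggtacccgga
TAP2, chr6:32838740-32838989, minus strand: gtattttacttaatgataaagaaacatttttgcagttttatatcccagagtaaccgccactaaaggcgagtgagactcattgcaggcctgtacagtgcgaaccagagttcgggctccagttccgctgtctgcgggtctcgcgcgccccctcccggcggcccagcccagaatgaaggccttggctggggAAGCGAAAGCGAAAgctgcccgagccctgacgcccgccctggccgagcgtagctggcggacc
PSMB8, chr6:32844680-32844929, minus strand: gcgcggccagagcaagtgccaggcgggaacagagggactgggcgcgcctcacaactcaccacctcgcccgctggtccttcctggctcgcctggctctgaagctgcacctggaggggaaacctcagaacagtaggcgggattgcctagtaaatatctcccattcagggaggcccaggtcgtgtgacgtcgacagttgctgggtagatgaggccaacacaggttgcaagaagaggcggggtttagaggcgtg
The IRF core was found in 6 of the 8 promoters, those of HLA-B, HLA-C, HLA-F, B2M, TAP1 and TAP2. Of 35116 promoters of the same length, 20.3% held it. The NF-κB consensus was found in 4 of the 8 (HLA-B, HLA-C, B2M and TAP1) and in 5.21% of all promoters. A CCAAT box, the letters CCAAT, was found in 6 of the 8 and in 32.0% of all promoters. In HLA-B the 2 NF-κB matches overlap one another, and so do the 2 IRF cores in B2M, in TAP1 and in TAP2. In PSMB8 none of the 3 motifs was found, and in PSMB9 only the CCAAT box. The windows of TAP1 and PSMB9 overlap on opposite strands, and their CCAAT boxes are the same bases, counted once for each gene. The IRF and NF-κB matches of TAP1 lie further upstream of PSMB9, outside the 250 bases taken for it. The motifs were picked with the sequences in view. A match describes the letters only.

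Values are TPM, an abundance per transcript length that sums to the same total in each library, divided here by a scaling factor per library (0.744 to 1.11) so that most genes stay level between libraries, and named scaled TPM. The number of reads behind each library was not known from TPM, so no counting error is given. A gene was called when limma, fitted to log2(scaled TPM + 1), gave a Benjamini-Hochberg adjusted p below 0.05 over all 15303 genes and a fold change over 2. A fold change on this scale understates the change of low genes. Transcripts of mitochondria took 36.9% to 57.0% of TPM in RT libraries and 18.3% to 21.1% in untreated libraries. IL1RAP-KO RT replicate 2 stood apart, with 57.0% and the lowest correlation with its partner (r = 0.97 on the log2 scale, against 0.98 to 0.99 in the other groups). The targeted genes were checked first. IL1RAP had 3.04 and 5.80 scaled TPM in IL1RAP-KO RT cells, against 8.38 and 8.84 in WT RT cells, and 4.39 and 4.95 in IL1RAP-KO cells, against 18.1 and 20.7 in WT cells. IL1R1 had 8.25 and 7.36 scaled TPM in IL1R1-KO RT cells, against 7.43 and 6.11 in WT RT cells, and 10.97 and 7.78 in IL1R1-KO cells, against 10.7 and 9.44 in WT cells. The level of IL1R1 RNA therefore did not show the knockout, but a level of RNA is not a test of receptor function. The paper reported that cells with guides against IL1R1 resisted loss of IκBα, an inhibitor of NF-κB, after IL-1α or IL-1β. IL1R1-KO is used below as the label of those libraries. All 10 markers of basal mammary epithelium reached 1 TPM in every group, and their sum was 2460 to 3708 scaled TPM in RT libraries and 4170 to 5031 in untreated ones. The markers did not fall together. KRT5 fell from 2369 and 2282 scaled TPM in WT to 891 and 859 in WT RT cells, and LAMB3 rose from 133 and 125 to 340 and 291. In WT RT cells 1 of the 10 was called higher and 2 lower (7.08% and 6.12% of all genes). Their median log2 fold change was 0.10 in IL1R1-KO, -0.06 in IL1RAP-KO and -0.40 in WT cells. The part of these differences in the results was not tested.

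**Figure D1:**
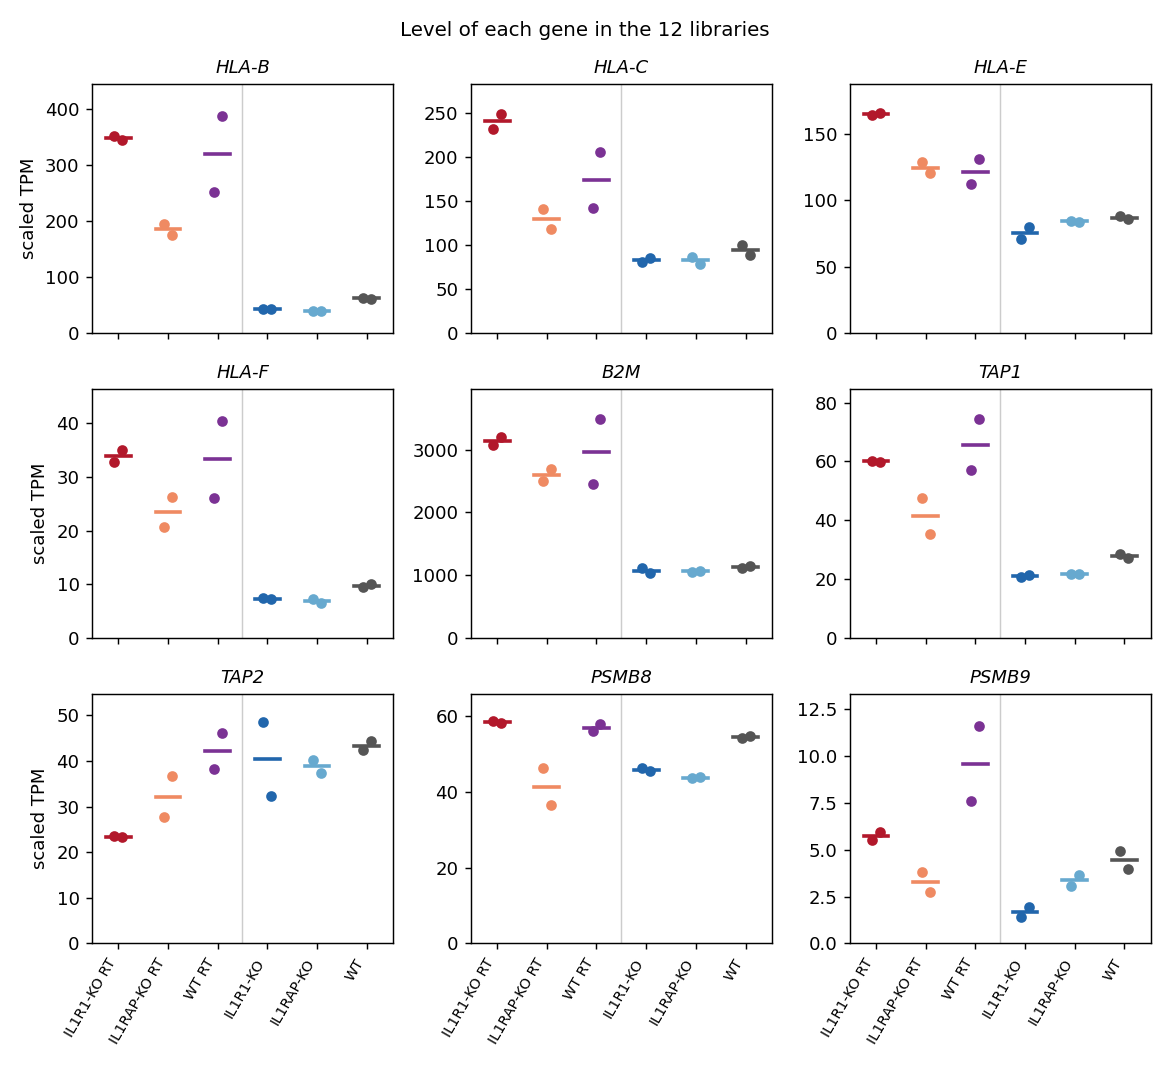
Scaled TPM of the 9 genes (y axis, linear, from 0) in each of the 12 libraries, by group (x axis). Points are libraries and lines are group means, with RT groups left of the grey line. HLA-B, HLA-C, HLA-E, HLA-F, B2M and TAP1 lie higher in every RT library than in every untreated library, and TAP2, PSMB8 and PSMB9 do not. With TPM as deposited, which is not drawn, HLA-C, HLA-E and TAP1 do not separate. IL1RAP-KO RT replicate 2 then has 87.5, 89.5 and 26.4, below WT replicate 1 at 108.6, 95.9 and 31.3. The share of all genes that separate in this way was not counted, so the separation is a description.

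After RT, HLA-B, HLA-F and B2M rose in every genotype, TAP1 rose in IL1R1-KO and WT cells, HLA-C, HLA-E and PSMB9 rose in IL1R1-KO cells, and TAP2 and PSMB8 were called in none. Of the 9 genes, 7 were called higher in IL1R1-KO RT cells (background 8.01% of all genes), 3 in IL1RAP-KO RT cells (8.21%) and 4 in WT RT cells (7.08%). None was called lower in any of the 3 comparisons, where 8.26%, 9.19% and 6.12% of all genes were. The median log2 fold change of the 9 genes was 1.46 in IL1R1-KO, 0.64 in IL1RAP-KO and 0.93 in WT cells, beside 0.01, 0.00 and 0.01 over all genes tested. At an adjusted p below 0.05 with any fold, 8, 6 and 7 of the 9 genes were higher (backgrounds 22.3%, 23.2% and 20% of all genes), and 1, 0 and 0 were lower (25.9%, 27% and 23.4%), the 1 being TAP2. In bulk RNA, more RNA per cell and more cells that express a gene cannot be told apart.

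HLA-B, a classical heavy chain that presents peptides to CD8 T cells, had the largest change of the 9 genes in each genotype. It had 352 and 346 scaled TPM in IL1R1-KO RT cells, against 43.6 and 43.1 in IL1R1-KO cells. In IL1RAP-KO RT cells it had 195 and 176 scaled TPM, against 40.4 and 39.9 in IL1RAP-KO cells. In WT RT cells it had 251.1 and 388 scaled TPM, against 62.8 and 61.2 in WT cells. Every RT library was above every untreated library, and the 2 WT RT libraries spanned more than the 2 libraries of either KO. The fold changes were 7.89, 4.53 and 4.97 (log2 2.98, 2.18 and 2.31, SE 0.16 each, limma adjusted p = 7.7e-07, 4.6e-06 and 4.2e-06).

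HLA-C, the other classical heavy chain described here and a ligand of killer cell receptors, changed less. In IL1R1-KO RT cells it had 231 and 248.7 scaled TPM, against 80.3 and 84.7 in IL1R1-KO cells. The pair in IL1RAP-KO RT cells was 141 and 118, against 86.4 and 78.5 in IL1RAP-KO cells. The pair in WT RT cells was 142 and 206, against 99.6 and 88.2 in WT cells. In scaled TPM no RT library overlapped the untreated ones. With TPM as deposited, IL1RAP-KO RT replicate 2 (87.5) lay below IL1RAP-KO replicate 1 (92.7) and WT replicate 1 (108.6). HLA-C was called in IL1R1-KO cells alone (log2 fold change 1.53, SE 0.16, limma adjusted p = 3.7e-05). In IL1RAP-KO and WT cells it was 0.64 and 0.86 higher on the log2 scale, short of the fold threshold (limma adjusted p = 0.0075 and 0.0017).

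HLA-E, a nonclassical heavy chain that shows leader peptides of other heavy chains to the receptor NKG2A, had the smallest change of the 4 heavy chains. It had 164 and 166 scaled TPM in IL1R1-KO RT cells, against 70.9 and 79.9 in IL1R1-KO cells. Levels were 129 and 120.3 in IL1RAP-KO RT cells, against 84.8 and 83.9 in IL1RAP-KO cells. WT RT cells had 112 and 131, against 88.0 and 85.9 in WT cells. HLA-E was called in IL1R1-KO cells (log2 fold change 1.12, SE 0.09, limma adjusted p = 8.1e-06) and was 0.56 (IL1RAP-KO) and 0.47 (WT) higher elsewhere, at folds of 1.47 and 1.39 (limma adjusted p = 0.00066 and 0.0022).

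HLA-F, a nonclassical heavy chain that can stand at the surface without peptide, was the least abundant of the 4 heavy chains described here in every group. Its levels were 32.8 and 35.0 scaled TPM in IL1R1-KO RT cells, against 7.47 and 7.25 in IL1R1-KO cells. They were 20.7 and 26.3 in IL1RAP-KO RT cells, against 7.30 and 6.64 in IL1RAP-KO cells, and 26.1 and 40.5 in WT RT cells, against 9.48 and 10.0 in WT cells. HLA-F rose in all genotypes, with log2 fold changes of 2.06, 1.61 and 1.64 (SE 0.18 each, limma adjusted p = 1.5e-05, 7.5e-05 and 8.8e-05).

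B2M, the light chain that every class I molecule needs, was the most abundant of the 9 in every library. It had 3078 and 3193 scaled TPM in IL1R1-KO RT cells, against 1120 and 1035 in IL1R1-KO cells. It had 2493 and 2688 in IL1RAP-KO RT cells, against 1057 and 1072 in IL1RAP-KO cells. In WT RT cells it had 2455 and 3483, against 1114 and 1156 in WT cells. The lowest RT library was above the highest untreated one. The log2 fold changes were 1.54, 1.28 and 1.37 (SE 0.14 each, limma adjusted p = 1.6e-05, 5.3e-05 and 4.9e-05).

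The 2 subunits of the peptide transporter did not move together. TAP1 had 60.2 and 59.9 scaled TPM in IL1R1-KO RT cells, against 20.8 and 21.6 in IL1R1-KO cells. It had 47.7 and 35.5 in IL1RAP-KO RT cells, against 21.89 and 21.98 in IL1RAP-KO cells, and 57.2 and 74.3 in WT RT cells, against 28.7 and 27.2 in WT cells. TAP1 was called in IL1R1-KO and WT cells (log2 1.46 and 1.19, SE 0.15, limma adjusted p = 3.1e-05 and 0.00015). Its rise in IL1RAP-KO cells, 0.88 on the log2 scale, stopped short of the threshold (limma adjusted p = 0.00077), and without IL1RAP-KO RT replicate 2 it was 1.09 and called. TAP2 had 23.5 and 23.3 scaled TPM in IL1R1-KO RT cells, against 48.5 and 32.3 in IL1R1-KO cells. It had 27.7 and 36.7 in IL1RAP-KO RT cells, against 40.1 and 37.5 in IL1RAP-KO cells, and 38.3 and 46.2 in WT RT cells, against 42.4 and 44.4 in WT cells. The groups overlapped in WT cells alone. The log2 fold changes of TAP2 were -0.74, -0.27 and -0.04 (SE 0.18 each, limma adjusted p = 0.0082, 0.24 and 0.88), and none was called. Without IL1R1-KO replicate 2, the first was -1.02 and called. In a description chosen after its values were seen, TAP1 stood at 96.7% to 257% of TAP2 in RT libraries and at 42.9% to 67.8% in untreated libraries, with no overlap.

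PSMB8, the inducible chymotrypsin-like subunit, was called in no genotype. It had 58.7 and 58.2 scaled TPM in IL1R1-KO RT cells, against 46.2 and 45.3 in IL1R1-KO cells, a log2 difference of 0.35 (SE 0.10, limma adjusted p = 0.017) that was short of the fold threshold. It had 46.2 and 36.5 in IL1RAP-KO RT cells, against 43.5 and 43.7 in IL1RAP-KO cells, which overlapped. It had 55.9 and 57.8 in WT RT cells, against 54.1 and 54.7 in WT cells. The log2 fold changes there were -0.09 in IL1RAP-KO and 0.06 in WT cells (limma adjusted p = 0.5 and 0.65). PSMB9, the inducible subunit that replaces PSMB6, was the least abundant of the 9 genes. It had 5.49 and 5.96 scaled TPM in IL1R1-KO RT cells, against 1.42 and 1.96 in IL1R1-KO cells. It had 3.83 and 2.76 in IL1RAP-KO RT cells, against 3.06 and 3.67 in IL1RAP-KO cells, and 7.56 and 11.6 in WT RT cells, against 4.92 and 3.97 in WT cells. PSMB9 rose in IL1R1-KO cells (log2 1.33, SE 0.22, limma adjusted p = 0.00076). It was 0.93 higher in WT RT cells, short of the fold threshold (limma adjusted p = 0.0067), and 1.21 and called without WT RT replicate 1. In IL1RAP-KO cells its RT and untreated values overlapped (log2 -0.03, limma adjusted p = 0.92).

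**Figure D2:**
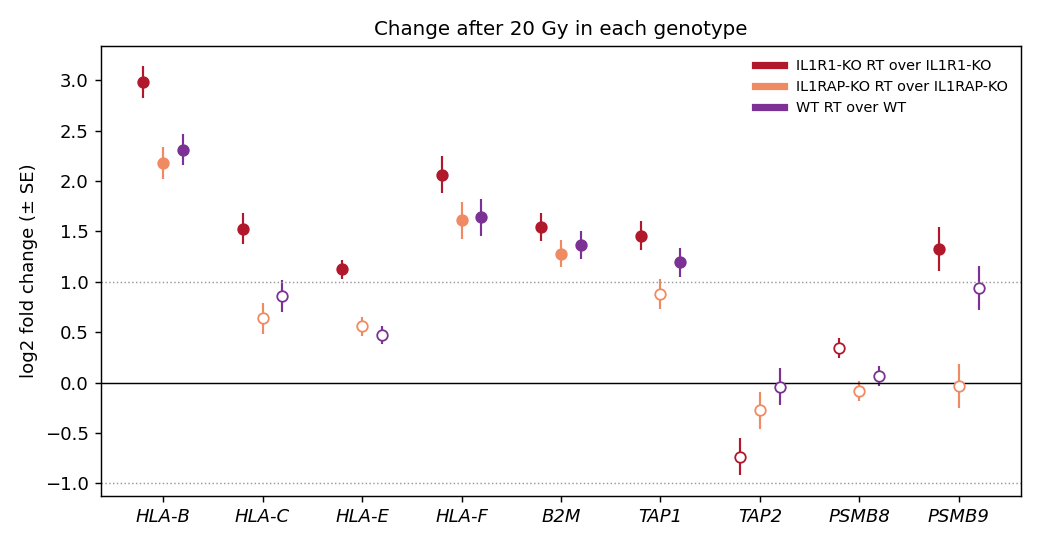
Log2 fold change after 20 Gy (y axis, bars are ± 1 SE from limma) of each gene (x axis) in IL1R1-KO, IL1RAP-KO and WT cells. Filled points were called and open points were not, and dotted lines mark a fold of 2. HLA-B stands highest in each genotype, at 2.98, 2.18 and 2.31, and TAP2 lowest.

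Each inducible subunit takes the place of a constitutive one, so each inducible gene was set against its constitutive partner in the same library. Percents are ratios of TPM, which the scaling of the libraries does not change, and log2 ratios were taken after adding 1 to each TPM. PSMB8 stood at 36.5% to 46.5% of PSMB5 in RT libraries and at 22.1% to 28.7% in untreated libraries. Its log2 ratio was 0.97 higher in IL1R1-KO RT, 0.77 higher in IL1RAP-KO RT and 0.55 higher in WT RT cells than in untreated cells of the same genotype, a mean of 0.76. PSMB9 stood at 4.78% to 16.8% of PSMB6 in RT libraries and at 1.14% to 3.83% in untreated libraries, and its log2 ratio was 2.42, 0.98 and 1.75 higher (mean 1.72). In both pairs every RT library was above every untreated library of its genotype. Both gave p = 0.0093 in a two-sided exact permutation test within genotypes, the smallest that the test can give with these libraries, and 0.014 adjusted over the 3 ratios. A ratio also rises when the partner falls, and PSMB5 and PSMB6 were lower after RT. PSMB8 itself had log2 fold changes of -0.09 in IL1RAP-KO and 0.06 in WT cells, and PSMB9 of -0.03 in IL1RAP-KO cells. The share of all genes that would pass the same test against PSMB5 or PSMB6 was not counted. The third inducible subunit, PSMB10, stood at 5.48% to 11.1% of PSMB7 in RT libraries and at 4.2% to 8.01% in untreated libraries, and RT and untreated values overlapped in 2 genotypes. That mean log2 difference, 0.45, missed the threshold (p = 0.056, exact permutation test).

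**Figure D3:**
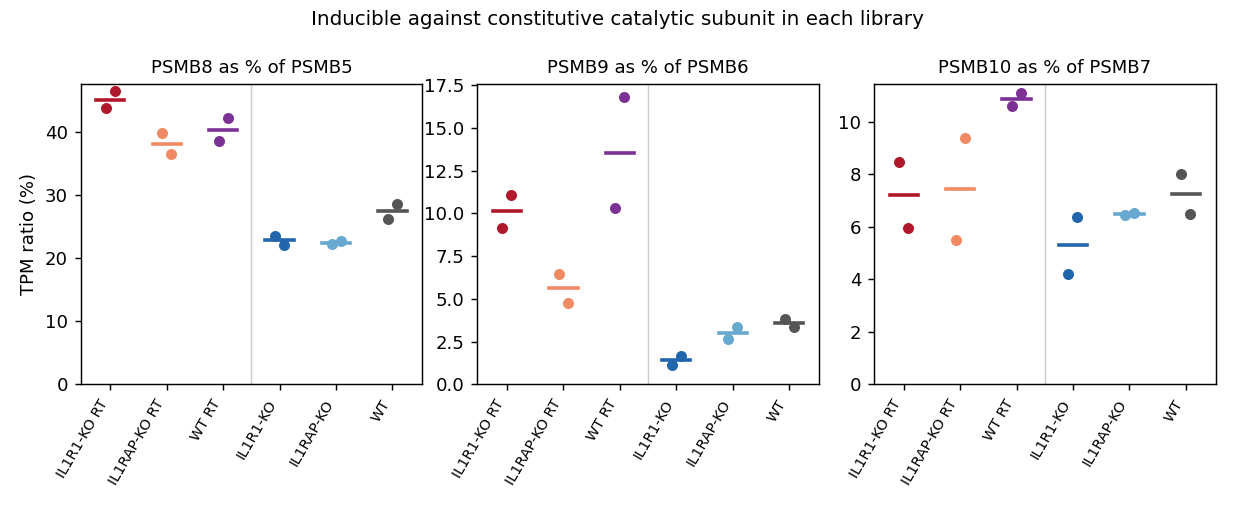
TPM of PSMB8, PSMB9 and PSMB10 as a percent of their constitutive partners PSMB5, PSMB6 and PSMB7 (y axes, linear, from 0) in each library, by group (x axis). Points are libraries and lines are group means. PSMB8 reaches 36.5% to 46.5% of PSMB5 in RT libraries, against 22.1% to 28.7% in untreated libraries.

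The constitutive partners were lower after RT in all genotypes. On the log2 scale PSMB5 was 0.63, 0.85 and 0.49 lower in IL1R1-KO RT, IL1RAP-KO RT and WT RT cells, and PSMB6 was 1.08, 0.92 and 0.79 lower, with the IL1R1-KO change of PSMB6 called (limma adjusted p = 6.5e-06). That call of PSMB6 was lost with scaling to nuclear protein-coding genes (log2 -0.60) and without IL1R1-KO RT replicate 2 (-0.99), and with TPM as deposited PSMB6 was called in IL1RAP-KO (-1.27) and WT cells (-1.05) too. PSMB7 was 0.76, 0.89 and 0.62 lower. PSMB5 and PSMB7 stayed lower in each genotype over the alternatives, with the smallest changes in IL1R1-KO cells (-0.15 and -0.28). Among 11 other genes of the 20S core, 3 were called lower in IL1R1-KO RT, 4 in IL1RAP-KO RT and 0 in WT RT cells, and none was called higher (8.26%, 9.19% and 6.12% of all genes were called lower). Scaled to nuclear protein-coding genes instead, the counts were 0, 2 and 0, and with TPM as deposited they were 3, 8 and 6. The IL1R1-KO count was 6 without IL1R1-KO replicate 2, and the WT count 1 without WT replicate 2 and 2 without WT RT replicate 2. In scaled TPM, at a limma adjusted p below 0.05 with any fold, 11, 11 and 9 of the 11 were lower, beside 25.9%, 27% and 23.4% of all genes. These changes also depended on the scaling, and PSMB4, for 1, ranged from -0.57 to -0.04 in IL1R1-KO cells over the alternatives. Of 4 genes of a list of other inducible and activator subunits, among them PSMB10 and the activators PSME1 and PSME2, 0 were called in any of the 3 comparisons, and at an unadjusted limma p below 0.05, 1, 0 and 1 were higher and 1, 3 and 1 lower. At that p 25.9%, 26.8% and 24.2% of all genes were higher, and 28.8%, 29.5% and 26.6% lower. PSMB10 had log2 fold changes of -0.27, -0.68 and -0.03.

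Of 9 genes for peptide loading and trimming, 0 were called in any RT comparison, where 8.01%, 8.21% and 7.08% of all genes were called higher and 8.26%, 9.19% and 6.12% lower, so that a count of 0 in 9 lies near the background. Of them, 3, 2 and 3 were higher and 4, 3 and 3 lower in IL1R1-KO, IL1RAP-KO and WT cells at an adjusted p below 0.05 from limma (22.3%, 23.2% and 20% of all genes higher, 25.9%, 27% and 23.4% lower). The 2 genes named next had the highest mean level of the list, and do not stand for those that were higher. CANX, a chaperone that folds new heavy chains, was 0.72, 0.45 and 0.37 lower on the log2 scale. PDIA3, which helps their disulfide bonds form, was 0.55, 0.34 and 0.31 lower. These values depended on the processing. Over the alternatives CANX ranged from -0.83 to -0.24 in IL1R1-KO, -0.80 to -0.05 in IL1RAP-KO and -0.64 to -0.26 in WT cells. PDIA3 ranged from -0.62 to -0.08, -0.69 to 0.06 and -0.58 to -0.20. Of 4 other class I or related genes that passed the filter, of 7 listed, MR1, which presents vitamin B metabolites, was called higher in all genotypes (folds of 2.22, 2.3 and 2.43, limma adjusted p = 6.7e-06, 5.4e-06 and 4.9e-06). With TPM as deposited, MR1 fell short of the fold threshold in IL1RAP-KO cells (log2 0.86). The list did not rise as a whole. At an adjusted p below 0.05 from limma with any fold, 1 of the 4 was higher and 2 were lower in each genotype (22.3%, 23.2% and 20% of all genes higher, 25.9%, 27% and 23.4% lower). MICA was 0.56, 0.76 and 0.80 lower on the log2 scale, and ranged from -0.62 to -0.10, -1.09 to -0.38 and -1.06 to -0.69 over the alternatives.

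Of 13 transcription factors that act on class I promoters, 1 was called higher and 1 lower in IL1R1-KO RT, 1 higher and 1 lower in IL1RAP-KO RT, and 1 higher in WT RT cells. These shares lie near those of all genes, of which 8.01%, 8.21% and 7.08% were called higher and 8.26%, 9.19% and 6.12% lower. NLRC5 had 11.04 and 10.93 scaled TPM in IL1R1-KO RT cells, against 4.04 and 3.71 in IL1R1-KO cells. It had 6.66 and 5.03 in IL1RAP-KO RT cells, against 4.34 and 3.72 in IL1RAP-KO cells, and 7.82 and 8.51 in WT RT cells, against 4.11 and 2.94 in WT cells. NLRC5 was called in IL1R1-KO and WT cells (log2 1.30 and 1.03, SE 0.17, limma adjusted p = 0.00017 and 0.00097) and not in IL1RAP-KO cells (log2 0.44, limma adjusted p = 0.055). The WT call of NLRC5 was lost with TPM as deposited (0.80), without WT replicate 2 (0.84) and without WT RT replicate 2 (0.98). IRF1, an activator of PSMB9, TAP1 and heavy chain genes, was 0.70, 0.51 and 0.84 higher on the log2 scale, short of the fold threshold in all genotypes. RFX5, a subunit of the complex that NLRC5 works with, was called lower in IL1R1-KO RT and IL1RAP-KO RT cells (log2 -1.09 in each, limma adjusted p = 1.9e-05 and 2.0e-05). Both calls of RFX5 were lost with scaling to nuclear protein-coding genes (-0.63 and -0.71), and the IL1R1-KO call without IL1R1-KO RT replicate 1 (-0.96). NFYB, a subunit of the CCAAT-binding factor NF-Y, was the gene called higher in IL1RAP-KO RT cells, with 81.4 and 103 scaled TPM against 38.3 and 36.2 in IL1RAP-KO cells (log2 1.28, SE 0.20, limma adjusted p = 0.00051). The NFYB call was lost with TPM as deposited (0.93), and NFYB was called in IL1R1-KO cells as well with scaling to nuclear protein-coding genes (1.24).

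Untreated, the 9 genes were not called different from WT in either KO. None reached an adjusted p below 0.05, which 0.17% of all genes did on the lower and 0.0196% on the higher side in IL1R1-KO cells, and 0.124% and 0% in IL1RAP-KO cells. With the fold threshold, 0.118% of all genes were called lower and 0.0196% higher in IL1R1-KO cells, and 0.098% and 0% in IL1RAP-KO cells. All 9 had a lower fitted mean than in WT in both lines, as 49.3% of all genes did in each. At an unadjusted limma p below 0.05, 5 of the 9 were lower in IL1R1-KO cells, where 2.99% of all genes were, and 4 in IL1RAP-KO cells, where 2.22% were. None was higher at that p, where 2.28% and 1.76% of all genes were. Without IL1R1-KO replicate 2, TAP2 in IL1R1-KO cells turned to 0.16 above WT on the log2 scale. HLA-B had the largest difference from WT in IL1RAP-KO cells (log2 -0.62, SE 0.16, limma adjusted p = 0.55) and PSMB9 in IL1R1-KO cells (log2 -1.02, SE 0.22, limma adjusted p = 0.25). Their 2 untreated values lay outside the WT values in both cases. B2M differed by -0.08 and -0.09 on the log2 scale (SE 0.14).

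After RT, PSMB9 was lower in IL1RAP-KO cells than in WT cells. It had 3.83 and 2.76 scaled TPM in IL1RAP-KO RT cells, against 7.56 and 11.6 in WT RT cells (log2 -1.28, SE 0.22, limma adjusted p = 0.0067), the single call among the 9 genes, with 2.1% of all genes called lower and 0.791% higher. The adjusted p was 0.19 when only the 4 libraries of the comparison were fitted. HLA-B (log2 -0.75, limma adjusted p = 0.015), TAP1 (-0.65, 0.019) and PSMB8 (-0.46, 0.018) were lower in IL1RAP-KO RT than in WT RT cells but short of the fold threshold. With PSMB9 that made 4 of 9 lower and 0 higher at an adjusted p below 0.05 (9.42% and 5.36% of all genes). Without WT RT replicate 1, HLA-B was -1.06 and called. The other 5 genes had adjusted p-values of 0.11 to 0.81, with HLA-E at a log2 difference of 0.04. Against the same WT RT libraries, none of the 9 was called in IL1R1-KO RT cells (background 1.1% higher and 1.99% lower), and 2 were higher and 2 lower at an unadjusted limma p below 0.05, where 11.3% and 15.3% of all genes were. HLA-E was 0.44 higher (SE 0.09, limma adjusted p = 0.012) and TAP2 0.82 lower (SE 0.18, adjusted p = 0.018), both short of the threshold (4.52% of all genes were higher and 7.78% lower at that p). HLA-B was 0.16 higher on the log2 scale (SE 0.16), HLA-F 0.06 (SE 0.18) and B2M 0.10 (SE 0.14). These 3 values depended on the scaling, at 0.53, 0.42 and 0.48 under the nuclear scaling and 0.44, 0.33 and 0.38 with TPM as deposited, and the lowest limma adjusted p over the alternatives was 0.015, 0.13 and 0.036. Both comparisons used the same WT RT libraries.

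**Figure D4:**
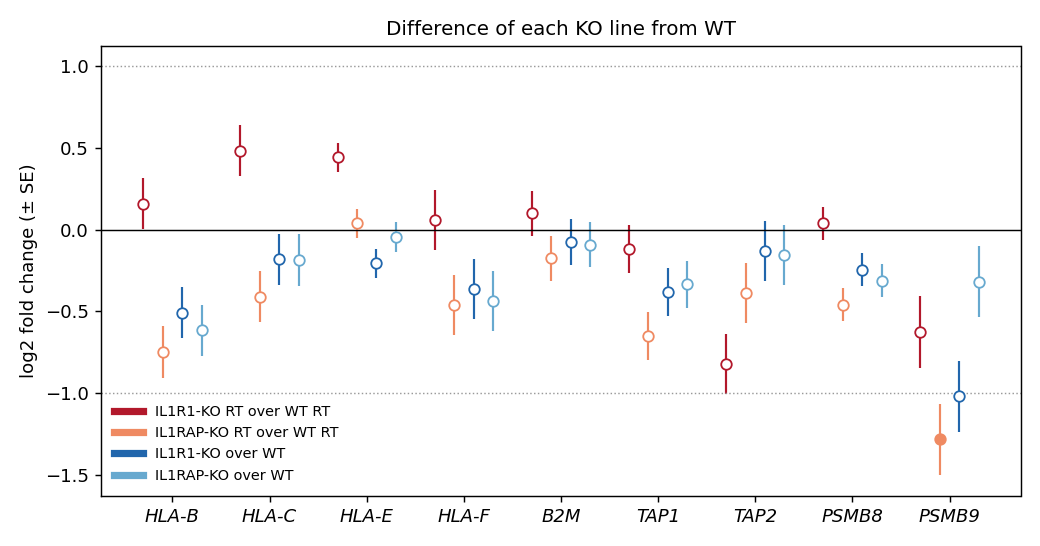
Log2 difference of each KO line from WT (y axis, bars are ± 1 SE from limma) for the 9 genes (x axis), after RT and untreated. Filled points were called and open points were not. PSMB9 in IL1RAP-KO RT cells, at -1.28, is the only filled point.

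The difference between the genotypes in their response to RT was tested as an interaction. None of the 9 genes was called in either line (backgrounds 0.503% higher and 0.961% lower for IL1R1-KO, 0.157% and 0.66% for IL1RAP-KO). At an unadjusted limma p below 0.05, 3 genes had a larger and 1 a smaller response in IL1R1-KO than in WT cells, and 1 a smaller response in IL1RAP-KO cells. Of all genes, 6.91% had a larger and 10.1% a smaller response in IL1R1-KO cells at that p, and 7.16% and 10.3% in IL1RAP-KO cells. HLA-E had the firmest value (log2 0.65, SE 0.13, limma adjusted p = 0.03) and was the one gene below an adjusted p of 0.05 (0.804% of all genes were higher and 1.97% lower at that p, and 0.294% and 1.03% for IL1RAP-KO, where 0 members were). HLA-B and HLA-C differed by 0.67 each, at an adjusted p of 0.16 from limma. For IL1RAP-KO, PSMB9 had the largest difference (log2 -0.97, limma adjusted p = 0.17). The responses of the 2 KO lines were not tested against each other.

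The direction of 6 of the 9 genes did not depend on how libraries were scaled. HLA-B, HLA-C, HLA-E, HLA-F, B2M and TAP1 were higher after RT in each genotype with TPM as deposited, with the trimmed mean, with median-of-ratios factors and when scaled to the summed TPM of nuclear protein-coding genes. The size of the rise did vary. Over all alternatives the lowest log2 fold changes of HLA-C, HLA-E and TAP1 were 1.48, 1.04 and 1.43 in IL1R1-KO cells. They were 0.29, 0.21 and 0.54 in IL1RAP-KO and 0.59, 0.21 and 0.93 in WT cells. For HLA-C and HLA-E in IL1RAP-KO and WT cells, the limma adjusted p was not below 0.05 in every alternative. The same held for TAP1 in IL1RAP-KO cells. PSMB8 and TAP2 changed sign with scaling in WT and IL1RAP-KO cells, and PSMB9 in IL1RAP-KO cells. With scaling to nuclear genes the median of all genes was 0.40, 0.33 and 0.10 in the IL1R1-KO, IL1RAP-KO and WT comparisons, and with TPM as deposited it was 0.03, -0.28 and -0.21. HLA-B in WT cells had log2 fold changes of 2.04 to 2.42 over these scalings.

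**Figure D5:**
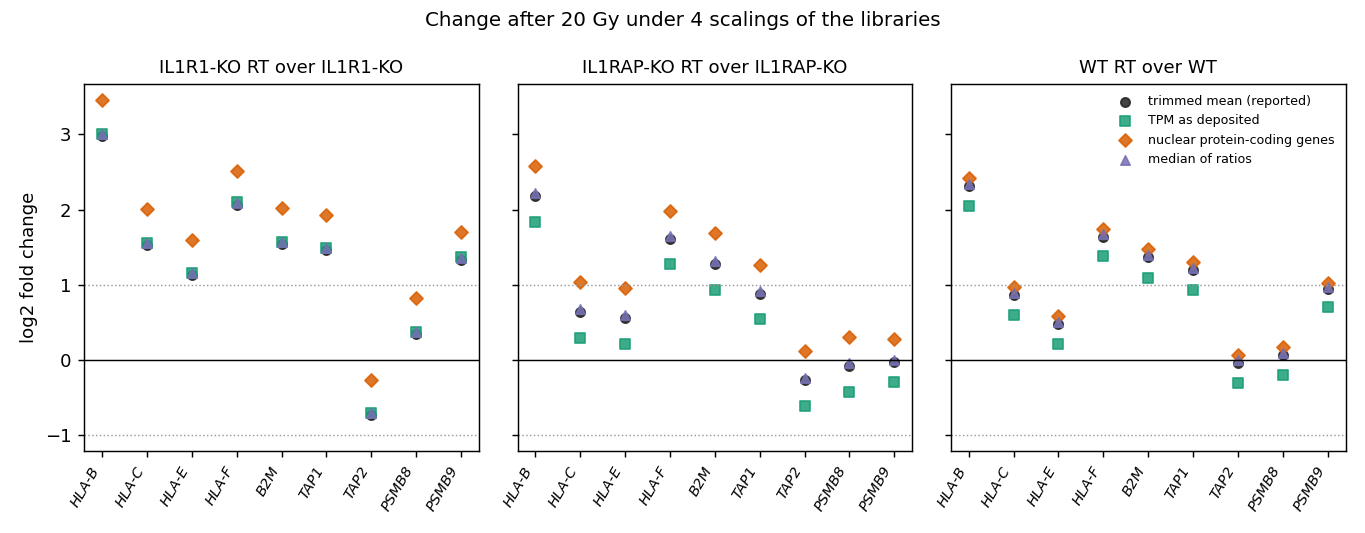
Log2 fold change after 20 Gy (y axis) of each gene (x axis) in IL1R1-KO, IL1RAP-KO and WT cells under 4 scalings of the libraries (symbols). HLA-B, HLA-C, HLA-E, HLA-F, B2M and TAP1 stay above 0 in every panel and TAP2, PSMB8 and PSMB9 cross it in at least one.

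Over the 12 libraries, HLA-B and HLA-F were the most alike pair (Pearson r = 0.99) and HLA-E and TAP2 the least alike (r = -0.72). These values describe libraries that share treatment and genotype. The mean of the standardised members was highest in WT RT replicate 2 (1.28) and lowest in IL1R1-KO replicate 2 (-0.91), and IL1RAP-KO RT replicate 2, at -0.03, was the lowest of the RT libraries. Among other genes with a mean log2 value of at least 2, IPO13, LGALS3BP, MAFK, ZFYVE27 and SLC15A4 followed this mean most closely, with r of 0.95 to 0.96 over the 12 libraries. Summed leukocyte markers were 35.3 to 83.2 scaled TPM in RT libraries and 11.6 to 25.3 in untreated ones, mostly from CD14. Of the 12 markers, 3 reached 1 TPM anywhere, and PTPRC, which all leukocytes carry, stayed at or below 0.283. Their part in the class I values was not tested.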

How the data were processed

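RNA of MCF10A cells was sequenced as 75-base paired ends after depletion of ribosomal RNA. Per the submitters' notes and methods, trimming used cutadapt 1.15, alignment to GRCh38 used STAR 2.5.3a, and HTSeq gave counts per gene. From these the authors deposited TPM, and how gene lengths were chosen is not given in the sources used here. TPM are not counts, so the planned count model was replaced by limma 3.58.1 in R 4.3.3 on log2(scaled TPM + 1). Trimmed-mean scaling (30% of M values, 5% of A values), a filter of 1 TPM in at least 2 libraries, 6 group means, 6 residual and 3.73 prior degrees of freedom were used. Depth is unknown from TPM, and the 2 libraries per group set the precision. Ratios of subunits were tested by exact permutation within genotypes. The members and lists were chosen with earlier results of these data known. Named beside the members were up to 4 called genes per list (by adjusted p) with up to 2 abundant others, PSMB5, PSMB6, PSMB7, PSMB10, NLRC5 and IRF1, and the 5 genes most like the members. Positions are from GENCODE. Some genes of the lists are not reported here. Alternatives were other scalings, a pseudocount of 0.1, no filter, no fold threshold, a replicate block, only the groups compared, and each library left out. The code was tested on simulated data.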

Additional observations from a re-analysis of the deposited data

Results flagged for a closer look

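HLA-E responded more to RT in the libraries labelled IL1R1-KO than in those of WT, by 0.648 on the log2 scale (SE 0.13, limma adjusted p = 0.03), and leaving out single libraries or changing the processing gave adjusted p-values of 0.0072 to 0.13. PSMB8-AS1, the antisense RNA that overlaps PSMB8 and PSMB9, likewise responded more in IL1R1-KO cells, by 1.09 (SE 0.22, limma adjusted p = 0.032). PSMB8-AS1 had 10.3 and 8.47 scaled TPM in IL1R1-KO RT cells and 5.30 and 5.41 in WT RT cells, against 2.08 and 1.60 in IL1R1-KO cells and 2.48 and 2.94 in WT cells, and the adjusted p was 0.01 to 0.13 over the alternatives. CD74, the invariant chain of class II molecules, responded less in IL1R1-KO cells, by -2.85 (SE 0.51, limma adjusted p = 0.021). It passed the filter on low values through the WT RT libraries alone, where it is high, so this difference is a description. CD74 had 0 and 0.302 scaled TPM in IL1R1-KO RT cells, against 11.8 and 4.13 in WT RT cells, and its adjusted p was 0.0027 to 0.09 over the alternatives. Each was noted because the difference in response between the genotypes passed the test at an adjusted p below 0.05.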

How the results depend on the processing

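None of the 1620 alternative values of the 9 genes reversed a called direction, and 30 changed a call. Scaling to nuclear protein-coding genes raised the members called higher to 5 in IL1RAP-KO RT cells (HLA-C 1.03 and TAP1 1.27 added) and to 3 in the response of IL1R1-KO against WT (HLA-B 1.03, HLA-C 1.03 and HLA-E 1.01). With TPM as deposited, TAP1 in WT RT (0.93) and B2M in IL1RAP-KO RT cells (0.93) fell short of the fold threshold. Fitting only the groups compared left 0 members lower in IL1RAP-KO RT than in WT RT cells. Without the fold threshold, members higher were 7 in WT RT and 6 in IL1RAP-KO RT cells, 1 was lower in IL1R1-KO RT cells, 1 was higher and 1 lower in IL1R1-KO RT against WT RT, 4 were lower in IL1RAP-KO RT against WT RT, and 1 was higher in the response of IL1R1-KO against WT. Leaving out each library in turn gave 7 to 7 members higher and 0 to 1 lower in IL1R1-KO RT cells, 3 to 4 higher in IL1RAP-KO RT cells, 4 to 6 higher in WT RT cells, and 1 to 2 lower in IL1RAP-KO RT against WT RT. The mean log2 differences then ranged from 0.74 to 0.79 for PSMB8 to PSMB5, from 1.61 to 1.82 for PSMB9 to PSMB6 and from 0.32 to 0.57 for PSMB10 to PSMB7, the last past the threshold without IL1R1-KO replicate 2 (0.54) or IL1RAP-KO RT replicate 1 (0.57). PSMB9 in WT RT cells was also called with a pseudocount of 0.1 (1.06), with nuclear scaling (1.02) and without WT replicate 1 (1.06), and HLA-C without WT RT replicate 1 (1.13). The cause of these changes was not tested. With the replicate number as a replicate block, 7 members were higher in IL1R1-KO RT, 3 in IL1RAP-KO RT and 4 in WT RT cells, 1 was lower in IL1RAP-KO RT against WT RT, and no call of a member changed. Same-numbered libraries did not deviate together (r = -0.06 to 0.09 over 15 pairs of groups), so no shared effect of the replicate number was seen. These correlations cannot tell whether same-numbered libraries were prepared together. With 2 libraries per group and no read counts, small changes of the low gene PSMB9 were limited by the spread between 2 values.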

Other observations

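Class II genes, which present peptides from outside the cell and are low in epithelium, were at low levels in these cells. Of 12 listed, 6 passed the filter, and 4 were called higher in WT RT cells (background 7.08%), 0 in either KO line (8.01% and 8.21%). CD74, HLA-DRA and HLA-DPA1 reached the 1 TPM of the filter in the WT RT libraries alone. CIITA reached it there and in IL1RAP-KO replicate 2 (1.08 TPM as deposited). These genes passed the filter through the group where they are high, so the counts describe them and are no test against the background. At an unadjusted limma p below 0.05, 1 and 0 were higher in the KO lines, where 25.9% and 26.8% of all genes were. CD74 had 11.8 and 4.13 scaled TPM in WT RT cells, against 0.174 and 0.0377 in WT cells (log2 2.88, SE 0.36, limma adjusted p = 0.00018). CIITA, the master activator of class II genes, had 5.63 and 2.495 in WT RT cells, against 0.578 and 0.509 in WT cells (log2 1.64, SE 0.32, adjusted p = 0.0025 from limma). HLA-DRA, a class II heavy chain, had 8.08 and 1.97 in WT RT cells and was listed at 0 in both WT libraries. In each KO line after RT, 4 of the 6 were called lower than in WT RT cells (backgrounds 1.99% and 2.1%), and these calls were lost when only the 4 libraries of the comparison were fitted (CD74 limma adjusted p = 0.064 for IL1R1-KO RT and 0.19 for IL1RAP-KO RT). The filter bears on these counts in the same way. For CD74, CIITA, HLA-DRA and HLA-DPA1, WT RT replicate 1 was the higher of the pair, and for HLA-B replicate 2.

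Summed fibroblast markers, mostly DCN, were 42.9 to 91.7 scaled TPM in RT libraries and 17.9 to 22.9 in untreated ones, and summed endothelial markers 7.9 to 12.1 and 3.5 to 5.2. Their part in the class I values was not tested.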
